A study of Mus musculus with 25 samples.

Results

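The 40 genes described here encode the machinery of macroautophagy and its cargo receptors, and they were taken by symbol from a list that orders the pathway by step. All 40 symbols were found among the 30926 genes of the table, each with a single gene ID. The list held 5 genes of the initiation kinase complex, 5 of the class III PI3-kinase complex, 6 for lipid transfer and PI3P binding, 10 conjugation enzymes, 5 ATG8 proteins, 7 cargo receptors and 2 transcription factors.

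Macroautophagy encloses cytoplasm in a double membrane, the autophagosome, which then fuses with the lysosome, where the content is broken down to nutrients. The ULK kinase complex starts the process when nutrients fall, the class III PI3-kinase marks the membrane with PI3P, and WIPI proteins read that mark. Conjugation enzymes then attach ATG8 proteins (the LC3 and GABARAP subfamilies) to the membrane, and cargo receptors such as p62 bind ubiquitinated cargo and ATG8 at once. Pancreatic ductal adenocarcinoma is a tumour known for a high level of autophagy, and glutamine is among the nutrients on which it draws.

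The libraries came from KPC, a mouse pancreatic ductal adenocarcinoma line on the C57BL/6 background, in 5 groups of 5. In the parental line the starved group was kept for 24 h in DMEM lacking glutamine, with 10% dialysed serum, and the complete group for 24 h in complete DMEM. A pair of derivatives with a hairpin against Slug (shSlug1 and shSlug2) was set against a derivative with a luciferase hairpin (shLuc), and all 3 were starved in the same way, so no hairpin cells were kept in complete medium. Slug is the transcription factor encoded by Snai2, a driver of epithelial-to-mesenchymal transition. The sources used here do not give how the hairpins were delivered, whether the derivatives were clones, or the serum of the complete medium during those 24 h, so the absence of glutamine and the dialysis of the serum cannot be told apart. The labels number the replicates without saying whether they were separate cultures, and the p-values therefore cover the spread between these libraries only, which may be technical.

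Recovered library totals were 158729 to 549893 counts, which made 1 count worth 1.82 to 6.30 CPM (counts after scaling each library to 1 total). Starved replicate 3 had the fewest counts, and shSlug1 replicates 4 and 5 had lower totals (233147 and 211687) and higher shares of mitochondrial counts (24.3% and 26.5%) than the other shSlug1 libraries (17.3% to 18.3%). Snai2 averaged 79.5 ± 14.5 CPM in starved cells and 7.54 ± 5.42 CPM in complete medium, and 6.09 ± 3.75 CPM with shSlug1 and 4.29 ± 2.89 CPM with shSlug2 against 55.9 ± 24 CPM with shLuc (SD, n = 5 each). The 11 markers of ductal epithelium summed to 2174 to 2702 CPM in starved and 4392 to 5466 CPM in complete libraries. They summed to 5177 to 5920 CPM with shSlug1, 5329 to 6462 CPM with shSlug2 and 4988 to 6491 CPM with shLuc; Epcam had at most 2 counts in any library, and Cldn4 had none in the shLuc and both parental groups. Markers of leucocytes (4 of 7 used) summed to 9.41 to 31.5 CPM in starved and 55.1 to 81.5 CPM in complete libraries, mostly from Cd14, and to 4.29 to 35.7 CPM in the hairpin lines. Markers of fibroblasts (8) reached at most 15.3 CPM in sum with Col3a1 at 0, endothelium (5) 19.3 CPM, acinar cells (3 of 6 used) 41.7 CPM with Prss1 at 0, and islet cells (4 of 5 used) 9.45 CPM with Gcg at 0.

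The results below turn on Sqstm1, Wipi2, Atg3 and Atg13 among others, and the region around the start of transcription is shown for these 4 because they rose in starved cells and because their windows differ in the motifs that the transcription factors TFEB, TFE3, ATF4 and NRF2 are known to bind. Each window holds 250 bases before and 50 after the start, 5′ to 3′ along the gene, from RefSeq on GRCm38.p6. Capitals mark the motif matches found, and a window with none is in lower case throughout. The Sqstm1 window lies at chr11:50210771-50211070 on the minus strand, that of Wipi2 at chr5:142629334-142629633 on the plus strand, that of Atg3 at chr16:45158579-45158878 on the plus strand, and that of Atg13 at chr2:91710543-91710842 on the minus strand.
Sqstm1: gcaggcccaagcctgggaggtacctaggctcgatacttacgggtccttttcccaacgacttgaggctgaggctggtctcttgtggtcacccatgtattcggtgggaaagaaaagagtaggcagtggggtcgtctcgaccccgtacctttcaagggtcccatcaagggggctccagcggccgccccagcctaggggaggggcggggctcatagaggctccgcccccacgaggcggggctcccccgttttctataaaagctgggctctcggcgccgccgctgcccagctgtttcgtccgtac
Wipi2: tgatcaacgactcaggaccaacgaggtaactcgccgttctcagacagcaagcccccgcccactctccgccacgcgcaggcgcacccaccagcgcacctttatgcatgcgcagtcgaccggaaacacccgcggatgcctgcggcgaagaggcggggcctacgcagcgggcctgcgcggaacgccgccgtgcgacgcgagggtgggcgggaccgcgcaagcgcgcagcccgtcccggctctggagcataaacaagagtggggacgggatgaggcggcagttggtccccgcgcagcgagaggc
Atg3: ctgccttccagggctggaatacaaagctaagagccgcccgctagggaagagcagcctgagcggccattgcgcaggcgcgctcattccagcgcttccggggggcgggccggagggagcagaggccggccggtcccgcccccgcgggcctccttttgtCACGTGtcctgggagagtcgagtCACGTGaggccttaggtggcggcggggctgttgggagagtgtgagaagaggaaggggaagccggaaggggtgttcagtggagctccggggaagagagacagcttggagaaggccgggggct
Atg13: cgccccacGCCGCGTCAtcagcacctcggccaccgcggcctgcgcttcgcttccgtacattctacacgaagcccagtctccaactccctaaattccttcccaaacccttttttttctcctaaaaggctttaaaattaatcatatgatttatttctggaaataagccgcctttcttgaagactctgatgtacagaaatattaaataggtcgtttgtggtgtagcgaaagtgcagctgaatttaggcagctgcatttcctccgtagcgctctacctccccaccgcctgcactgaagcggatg

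In the Atg3 window the capitals are a pair of E-boxes (CACGTG), beginning 94 and 71 bases before the start, and in the Atg13 window an antioxidant response element (TGACNNNGC, on the other strand), beginning 242 bases before the start. Both strands of 40 windows from 33 members were searched, beside 32851 windows of all genes. Rb1cc1, Becn1, Pik3c3, Atg12, Atg16l1, Map1lc3a and Bnip3l had no window and were not searched. Atg12 and Map1lc3a among them rose in starved cells. The CLEAR element, which TFEB and TFE3 bind and which was searched as the E-box with GT before and AC after it, was in 0 of the 40 windows and in 0.326% of all windows. The E-box alone was in the windows of Atg14, Atg3, Atg5, Atg7 and Bnip3 (5 of 40), and in 7.15% of all windows. The ATF4 composite element TGATGNAA was in 0 of 40 and 3.97%, and the antioxidant response element, bound by NRF2, was in those of Atg13, Map1lc3b, Tax1bp1 and Ulk2 (4 of 40), and in 12.4%. Such matches describe letters in these windows and are not measured binding.

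Whether glutamine starvation moved the autophagy genes was addressed in the parental line. Of the 40 members, 37 were tested, and 9 were called higher (22.5% of the 40) and 0 lower. Calls were at an adjusted p under 0.05 in limma-trend on log2(CPM + 1). The 9 were Atg13, Wipi2, Atg3, Atg12, Map1lc3a, Gabarapl2, Sqstm1, Nbr1 and Calcoco1. They held at least 1 gene from the initiation, PI3P-binding, conjugation, ATG8 and cargo steps and none from the PI3-kinase complex or the transcription factors. With 2 to 10 members each, the steps were too small to be set apart by such counts, and they were not compared. Over all 12473 genes tested, 10.8% were called higher and 11.7% lower. The median log2 change was 0.29 over the 37 members tested, against -0.06 over all genes tested. At an unadjusted p under 0.05 there were 12 members, all higher, against 4061 of all 12473 genes tested, in both directions. Of the members, edgeR's quasi-likelihood test called 11 and DESeq2 9, against 3068 and 2448 of all genes. Summed ductal markers, most of whose sum was Krt18 (1804 CPM in starved and 2739 CPM in complete libraries on average), and Cd14 were lower in the same starved libraries. Of the 9 ductal markers tested, 7 were called lower and 1 higher, the ductal transcription factor Sox9 at 33.4 CPM in starved against 13.3 CPM in complete libraries. The part of these markers in the changes was not tested. In bulk RNA, fewer cells of a kind and less RNA per cell cannot be told apart.

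**Figure D1:**
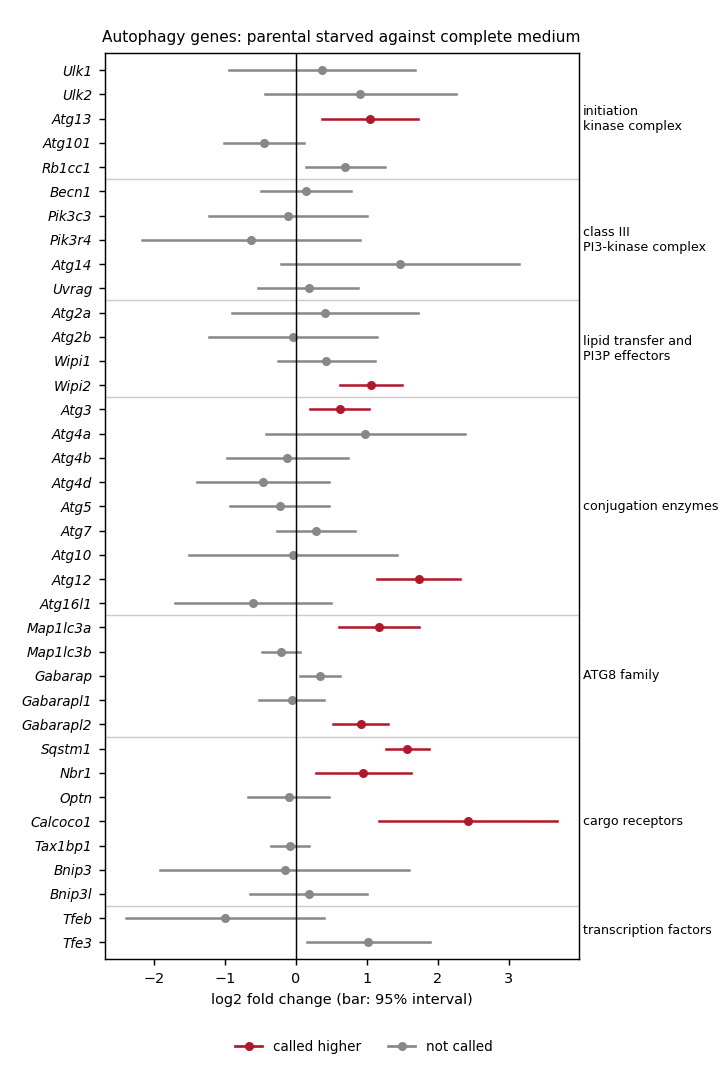
Log2 fold change of the 37 tested members in starved against complete medium in parental KPC cells, with 95% intervals from limma-trend, ordered by step. The 9 members called higher are red, and none was called lower.

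In the initiation complex, Atg13, the subunit that links the ULK kinases to FIP200, had 41.4, 36.5, 31.5, 32.7 and 56.4 CPM in starved libraries against 16.1, 23.6, 21.4, 11.7 and 21.6 CPM in complete medium. Every starved library was above every complete one, and the means were 39.7 ± 10.1 and 18.9 ± 4.89 CPM (SD, n = 5 each; log2 change 1.04, SE 0.34, limma adjusted p = 0.018). The Atg13 call was lost without complete replicate 4 (limma adjusted p = 0.064) and without starved replicate 5 (0.063). Rb1cc1, which encodes FIP200, the scaffold of the complex, had 124, 125, 120, 100 and 136 CPM in starved and 45.5, 106, 90, 90.8 and 56.7 CPM in complete libraries. The groups overlapped only through complete replicate 2 and starved replicate 4, and Rb1cc1 was not called (log2 change 0.69, limma adjusted p = 0.064), although edgeR's quasi-likelihood test gave an adjusted p of 0.013. The kinases Ulk1 and Ulk2 averaged 19.1 and 21.6 CPM in starved against 15.5 and 10.3 CPM in complete libraries, and Atg101, which stabilises Atg13, averaged 26.3 against 34.3 CPM. None of these 3 was called, and their limma adjusted p lay between 0.28 and 0.76.

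The class III PI3-kinase complex had 0 of 5 members called, where 10.8% of all genes tested were called higher and 11.7% lower. Its catalytic subunit Pik3c3 averaged 15.1 CPM in starved and 16.8 CPM in complete medium, the scaffold Becn1 39.4 and 35.8 CPM, the regulatory kinase Pik3r4 11.2 and 18 CPM, and Uvrag, the subunit of the endosomal form, 27.8 and 25.5 CPM. Atg14, which directs the complex to the forming autophagosome, was detected unevenly, with 9.56, 31.3, 0, 20 and 28.2 CPM in starved libraries against 0, 0, 15, 5.86 and 10.8 CPM in complete ones. It was not called (log2 change 1.47, limma adjusted p = 0.22), but was called without starved replicate 3, the shallowest library, in which it had no count (2.35, limma adjusted p = 0.028).

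Among the genes for lipid transfer and PI3P binding, Wipi2, the PI3P reader that recruits the ATG16L1 complex, had 143, 130, 145, 109 and 118 CPM in starved libraries, against 75, 51.2, 53.6, 41 and 99.9 CPM in complete medium. No starved library fell within the range of complete medium, and the means were 129 ± 15.7 and 64.1 ± 23.5 CPM (2.01-fold, log2 change 1.06, SE 0.22, limma adjusted p = 1.5e-04). Its paralogue Wipi1 averaged 57.4 CPM in starved and 40.9 CPM in complete medium (log2 change 0.43, limma adjusted p = 0.41). The lipid transfer proteins Atg2a and Atg2b averaged 19.1 and 15.6 CPM in starved against 12.9 and 18 CPM in complete libraries, and neither was called. Atg9a, the lipid scramblase of the pathway, and Wdr45, a further PI3P reader, were below the filter: Atg9a averaged 2.04 CPM in starved and 1.39 CPM in complete medium, and Wdr45 had no count in either group, where 3 counts correspond to 5.46 to 18.9 CPM in a library.

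Of the conjugation enzymes, 2 of 9 tested were called higher, beside 10.8% of all genes tested. Atg12, the ubiquitin-like protein that is joined to ATG5, had 57.4, 52.1, 94.5, 74.6 and 61.1 CPM in starved libraries and 10.7, 27.6, 23.6, 23.4 and 16.2 CPM in complete medium. The ranges were far apart, with means of 67.9 ± 17 and 20.3 ± 6.75 CPM (3.35-fold, log2 change 1.73, SE 0.29, limma adjusted p = 3.1e-06). Atg3, the E2-like enzyme that passes ATG8 to the lipid, had 92.4, 104, 113, 98.2 and 165 CPM in starved and 69.6, 110, 62.2, 52.7 and 81 CPM in complete libraries. The groups overlapped in complete replicate 2, and the log2 change was 0.62 (SE 0.21, limma adjusted p = 0.023). The Atg3 call was lost without complete replicate 3 (limma adjusted p = 0.063), complete replicate 4 (0.097) or starved replicate 5 (0.11), and with no filter on low values (0.061), with only the parental groups fitted (0.054) and in DESeq2 (0.051).

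The other conjugation enzymes were not called. Atg7, the E1-like enzyme that activates both ATG12 and ATG8, averaged 37 CPM in starved and 29.9 CPM in complete libraries, and the E2-like Atg10 8.88 and 6.94 CPM. Atg5 and Atg16l1, the partners of ATG12, averaged 32.5 and 21.8 CPM in starved against 39.8 and 20.6 CPM in complete medium. The ATG4 proteases, which trim ATG8 and release it from lipid, gave 10.9 (Atg4a), 13.3 (Atg4b) and 7.98 (Atg4d) CPM in starved against 6.06, 14.6 and 12.3 CPM in complete libraries. Atg4c was below the filter, at 2.28 ± 4.15 CPM in starved and 4.43 ± 1.26 CPM in complete medium.

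Within the ATG8 family, 1 LC3 and 1 GABARAP member were called higher, beside 10.8% of all genes tested, while the other 3 were not called. Map1lc3a had 31.9, 31.3, 69.3, 43.6 and 37.6 CPM in starved libraries against 13.4, 11.8, 23.6, 23.4 and 18.9 CPM in complete medium. The groups did not overlap (means 42.7 ± 15.7 and 18.2 ± 5.49 CPM, log2 change 1.17, SE 0.28, limma adjusted p = 9.7e-04). Gabarapl2 had 169, 135, 69.3, 138 and 151 CPM in starved and 93.7, 31.5, 75, 61.5 and 97.2 CPM in complete libraries. Starved replicate 3 was the single starved library inside the range of complete medium (log2 change 0.92, SE 0.19, limma adjusted p = 2.0e-04). Map1lc3b, the LC3 form most used as an autophagosome marker, averaged 343 ± 50.2 CPM in starved and 398 ± 79.4 CPM in complete medium, and its log2 change of -0.21 (95% interval -0.48 to 0.06) was not called (limma adjusted p = 0.3). Gabarap averaged 236 ± 23.3 and 187 ± 28.2 CPM (log2 change 0.34, limma adjusted p = 0.078), and Gabarapl1 61.6 ± 7.61 and 65.5 ± 17.5 CPM. The difference in change between Map1lc3a and Map1lc3b was not tested. Counts of Map1lc3b carry an added uncertainty because its 3′ end overlaps Gm20388 on the same strand and Zcchc14 on the other. Gm20388 averaged 233 CPM in starved against 225 CPM in complete libraries, and Zcchc14 112 against 73.8 CPM.

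The cargo receptors had 3 of 7 members called higher, beside 10.8% of all genes tested. Sqstm1, which encodes p62, the ubiquitin-binding receptor that is itself degraded by autophagy, had 434, 344, 271, 340 and 409 CPM in starved libraries against 155, 130, 135, 82 and 105 CPM in complete medium. The lowest starved library was well above the highest complete one, and Sqstm1 had the smallest p of the 40 genes (means 360 ± 64.1 and 122 ± 28.4 CPM, 2.96-fold, log2 change 1.57, SE 0.15, limma adjusted p = 5.0e-13). The gene lies at chromosome 11, positions 50199366 to 50210827 on the minus strand, and Mrnip on the other strand overlaps its 3′ end, with 3.35 CPM in starved and 4.53 CPM in complete libraries. Nbr1, a receptor that works with p62, had 31.9, 88.6, 50.4, 50.9 and 80 CPM in starved and 21.4, 27.6, 34.3, 26.4 and 37.8 CPM in complete medium, with overlap through starved replicate 1. Its log2 change was 0.95 (SE 0.34, limma adjusted p = 0.032). The Nbr1 call was lost without complete replicate 1, 2 or 4 (limma adjusted p = 0.087, 0.055 and 0.062), without starved replicate 2 or 5 (0.12 and 0.097) and with no filter (0.068).

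Calcoco1, a receptor for selective turnover of endoplasmic reticulum and Golgi, had 6.38, 26.1, 25.2, 21.8 and 28.2 CPM in starved libraries against 0, 0, 8.57, 11.7 and 5.4 CPM in complete ones. Starved replicate 1 lay among the complete libraries, and the log2 change was 2.43 (SE 0.63, limma adjusted p = 0.0024). The remaining receptors were not called. Tax1bp1 and Optn, ubiquitin-binding receptors like p62, averaged 300 and 32.1 CPM in starved against 318 and 33.9 CPM in complete medium. The mitophagy receptors Bnip3 and Bnip3l averaged 7.15 and 39.1 CPM in starved against 8.52 and 32.5 CPM in complete libraries. For Tax1bp1 the 95% interval of the log2 change was -0.35 to 0.19, whereas for the sparsely counted Bnip3 it was -1.92 to 1.59.

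The transcription factors of the pathway, TFEB and TFE3, which switch on lysosomal and autophagy genes, gave opposite signs with no call. Tfe3 had 31.9, 36.5, 50.4, 41.8 and 28.2 CPM in starved libraries against 16.1, 19.7, 19.3, 17.6 and 16.2 CPM in complete medium. The libraries did not overlap, yet the limma adjusted p was 0.083 (log2 change 1.02), and edgeR's quasi-likelihood test gave 0.017 and DESeq2 0.04. Tfeb averaged 7.13 ± 4.06 CPM in starved and 15.1 ± 6.94 CPM in complete libraries (95% interval of the log2 change -2.39 to 0.39, limma adjusted p = 0.34).

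**Figure D2:**
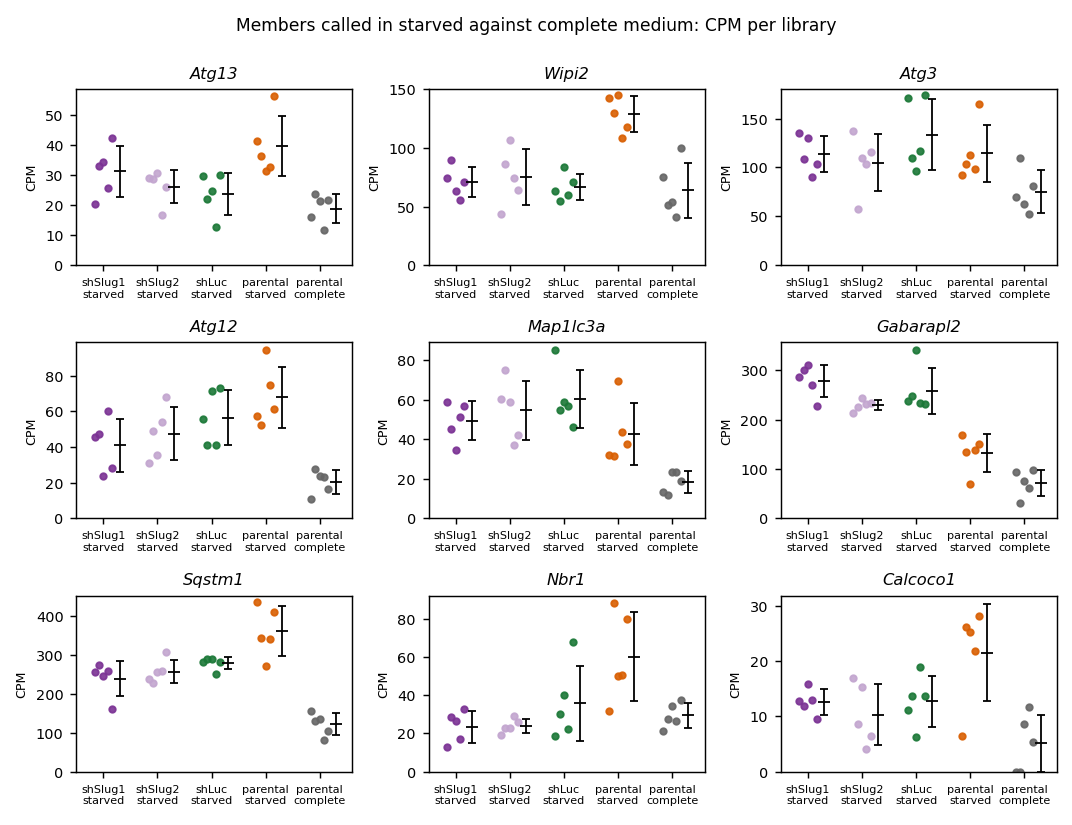
CPM of the 9 members called higher in starved parental cells, with 1 point per library in all 5 groups and a bar for the mean ± SD (n = 5), cut off at 0 on the linear axis. For Atg13, Wipi2, Atg12, Map1lc3a and Sqstm1 the starved parental points all lie above those of complete medium. The same held for 930 of all 12473 genes tested.

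Of 59 genes tested in 4 further autophagy lists, 9 were called higher and 9 lower (15.3% each) in starved against complete medium, against 10.8% and 11.7% of all genes tested. Of 11 tested genes for other formation and PI3-kinase regulators, 2 were called higher and 2 lower. Vmp1, an endoplasmic reticulum scramblase needed to form autophagosomes, averaged 219 ± 41.4 CPM in starved and 109 ± 34.7 CPM in complete medium (limma adjusted p = 2.4e-06). Its relative Tmem41b averaged 8.72 ± 10.4 and 19.8 ± 9.59 CPM (0.049). Bcl2l1, whose protein binds Beclin 1, was higher at 144 ± 21.2 against 104 ± 18.5 CPM (0.038), and Sh3glb1, a curvature protein that binds UVRAG, was lower at 201 ± 51.5 against 265 ± 17.5 CPM (0.028). Vmp1 kept its call in every alternative run. The calls of the other 3 were lost in edgeR's quasi-likelihood test, in DESeq2 and without single libraries. Those were complete replicates 2 to 5 and starved replicates 3 to 5 for Tmem41b, complete replicates 2 and 4 and starved replicates 3 and 5 for Bcl2l1, and complete replicates 2, 4 and 5 and starved replicates 2, 3 and 5 for Sh3glb1 (limma adjusted p up to 0.19, 0.12 and 0.1).

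For fusion with the lysosome, 3 of 15 tested genes were called higher (20%) and 2 lower (13.3%), beside the same shares over all genes of 10.8% and 11.7%. The tether Epg5 averaged 53 ± 17.9 CPM in starved against 7.76 ± 3.33 CPM in complete medium (6.83-fold, limma adjusted p = 1.7e-05). The SNARE Ykt6 averaged 97.7 ± 17.6 and 47.9 ± 13.8 CPM (1.1e-04) and the GTPase Rab7 369 ± 58.5 and 237 ± 55.4 CPM (3.0e-04), whereas the SNARE Vamp8 was lower, at 135 ± 19.8 against 218 ± 42 CPM (3.1e-04). Of 18 tested genes for other selective receptors, 3 were higher and 4 lower. Atl3, a receptor for tubular endoplasmic reticulum, averaged 96 ± 16.9 CPM in starved and 40.3 ± 6.93 CPM in complete libraries (2.3e-07), and Rtn3, another receptor for the same organelle, was lower at 92.9 ± 30.2 against 171 ± 26.8 CPM (7.6e-04). The mitophagy receptors Phb2 and Fkbp8 were lower, at 190 and 91 CPM in starved against 317 and 156 CPM in complete libraries (2.4e-05 and 5.3e-04).

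Among 15 tested genes for nutrient control, 1 was higher and 1 lower, beside 10.8% and 11.7% of all genes tested. Trp53inp1, a p53 target whose protein binds ATG8, averaged 40.4 ± 20.5 CPM in starved and 2.61 ± 2.74 CPM in complete medium (limma adjusted p = 7.9e-06). Flcn, which acts in amino acid signalling to mTORC1 and TFE3, averaged 6.72 ± 8.56 and 12.1 ± 4.23 CPM (0.022), a call lost in edgeR's quasi-likelihood test and DESeq2 and without any 1 of complete replicates 1 and 3 and starved replicates 3 and 5 (limma adjusted p up to 0.12).

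Whether loss of Slug changed these genes under starvation was addressed by each hairpin against shLuc, and no member was called in either comparison. With shSlug1, 0 of 37 tested members were called higher and 0 lower, where 0.369% of all genes tested were called higher and 1.09% lower. With shSlug2, the counts were again 0 and 0, where 0.473% of all genes were called higher and 0.176% lower. Both comparisons share the 5 shLuc libraries, so they are not independent. At an unadjusted p under 0.05 there were 5 members with shSlug1 (Atg2a, Wipi1, Atg5, Gabarap and Tfeb, all with negative changes). There was 1 with shSlug2 (Gabarap, also negative). Over all 12473 genes tested, 1611 and 1132 were under that threshold, in both directions. Of the members, edgeR's quasi-likelihood test called 0 with either hairpin, and DESeq2 called 0 with shSlug1 and 1 with shSlug2. Of all 12473 genes tested, edgeR called 293 with shSlug1 and 137 with shSlug2, and DESeq2 261 and 140. The median log2 change of the members was -0.21 with shSlug1 and -0.16 with shSlug2, against -0.09 and 0.01 over all genes tested.

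**Figure D3:**
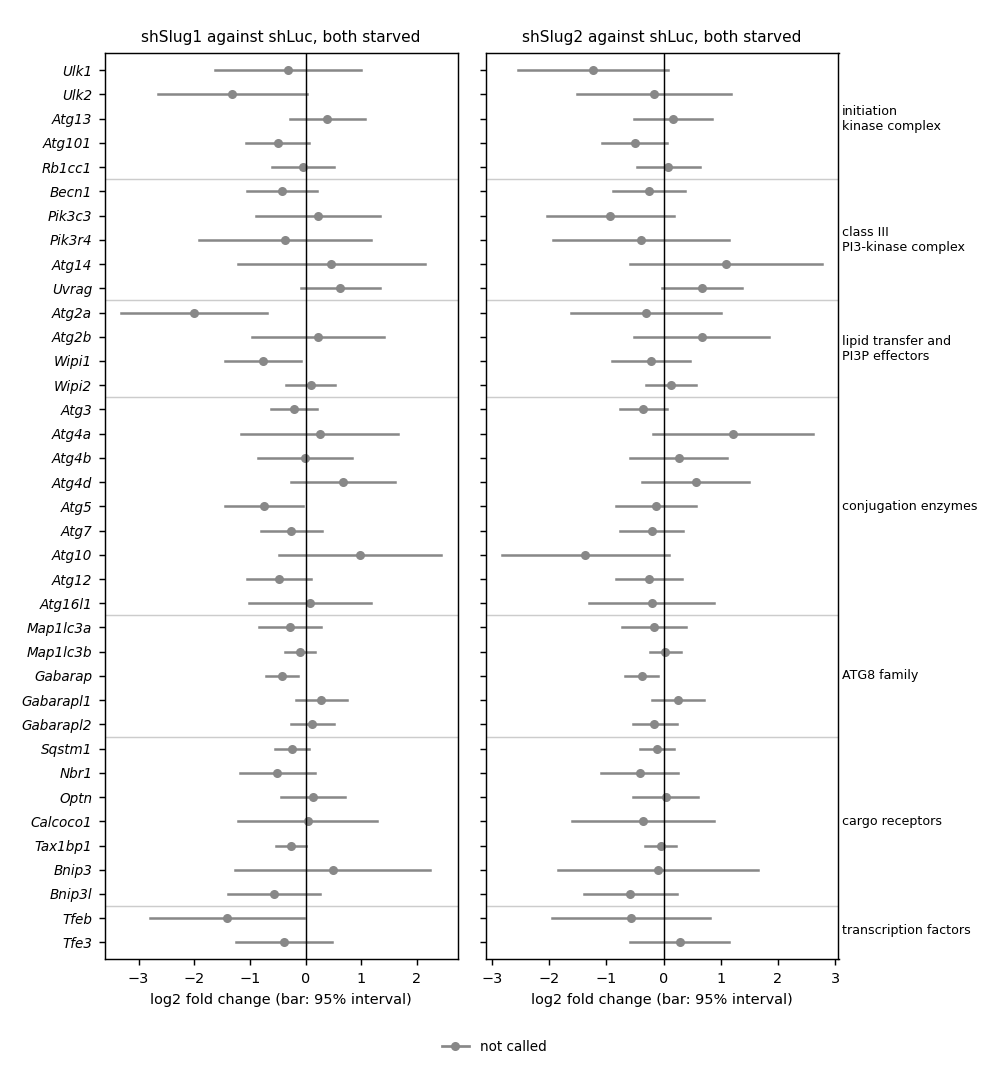
Log2 fold change of the 37 tested members for shSlug1 and shSlug2, each against shLuc, all starved, with 95% intervals from limma-trend. No member was called, and the intervals are narrow for Sqstm1 and Map1lc3b and wide for sparsely counted genes such as Atg14 and Bnip3.

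The widths of the intervals show what these libraries could tell. The 95% interval lay within 1 log2 unit on either side of 0 for 13 of 37 members with shSlug1 and for 17 with shSlug2, so for the rest the interval did not exclude a change of 1 log2 unit. Sqstm1 had 255, 273, 246, 257 and 161 CPM with shSlug1, 238, 227, 255, 257 and 307 CPM with shSlug2, and 282, 289, 288, 250 and 282 CPM with shLuc. The ranges overlapped, and the log2 changes were -0.24 (95% interval -0.55 to 0.06) with shSlug1 and -0.12 (-0.42 to 0.18) with shSlug2. Map1lc3b gave -0.10 (-0.37 to 0.17) with shSlug1 and 0.03 (-0.24 to 0.30) with shSlug2. Of the other genes that rose with starvation in parental cells, Wipi2 gave log2 changes of 0.09 with shSlug1 and 0.13 with shSlug2, and Atg12 -0.48 and -0.25, none of them called.

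Gabarap, an ATG8 protein that binds ULK1, was the 1 member at an unadjusted p under 0.05 with both hairpins. It had 383, 370, 347, 240 and 231 CPM with shSlug1, 303, 248, 334, 360 and 352 CPM with shSlug2, and 363, 388, 400, 434 and 491 CPM with shLuc. The shSlug2 libraries were all below those of shLuc, while 2 of the shSlug1 libraries were within their range. The log2 changes were -0.43 (95% interval -0.71 to -0.14, limma adjusted p = 0.11) and -0.38 (-0.67 to -0.10, limma adjusted p = 0.3), and DESeq2 called the shSlug2 difference (-0.42, adjusted p = 0.029). The 2 lowest shSlug1 libraries were replicates 4 and 5, those with low totals and high mitochondrial shares, and without them and starved replicate 3 the shSlug1 change was -0.17 (limma adjusted p = 0.73). Leaving out the lowest libraries shrinks this change by construction, and the part of depth or mitochondrial share was not tested. With shSlug2, Gabarap was the 1 tested member wholly below the shLuc libraries, and Atg4d the 1 wholly above them. Atg4d had 19.4 to 25.9 CPM with shSlug2 and 8.14 to 19 CPM with shLuc (log2 change 0.56, limma adjusted p = 0.81). Of all 12473 genes tested, 89 lay wholly below and 169 wholly above.

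Atg2a had 2.55, 4.74, 10.6, 0 and 0 CPM with shSlug1, 19.3, 8.63, 10.2, 8.29 and 3.23 CPM with shSlug2, and 11.1, 11, 6.2, 12.7 and 16.3 CPM with shLuc. The shSlug1 values at 0 were again replicates 4 and 5, and the log2 change of -2.01 (limma adjusted p = 0.11) was -0.96 without those libraries and starved replicate 3 (0.64). It was called only when shSlug1 replicate 3, the highest of the group, was left out (-2.50, limma adjusted p = 0.041). Leaving out the lowest shSlug1 libraries shrinks this change by construction, and leaving out the highest enlarges it.

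Of 59 genes tested in the other autophagy lists, 0 were called higher and 2 lower with shSlug1 (3.39%, against 1.09% of all genes tested), and 0 in either direction with shSlug2 (against 0.473% higher and 0.176% lower). Sh3glb1 averaged 131 ± 21 CPM with shSlug1 against 210 ± 33.3 CPM with shLuc (log2 change -0.67, limma adjusted p = 0.0061). Tecpr1, a tether of autophagosomes to lysosomes, averaged 17.8 ± 9.27 CPM with shSlug1 against 40.3 ± 19.6 CPM with shLuc (-1.13, limma adjusted p = 0.04). Its 2 lowest shSlug1 libraries were replicates 4 and 5, and in an alternative chosen after seeing the data, without them and starved replicate 3, its change was -0.63 (limma adjusted p = 0.47), against -0.80 (limma adjusted p = 0.0028) for Sh3glb1. For Tecpr1 the smaller change follows by construction from leaving out its lowest libraries. The Tecpr1 call was also lost without any 1 of shSlug1 replicates 2, 4 and 5 or shLuc replicates 2, 4 and 5 (limma adjusted p up to 0.2), and in edgeR's quasi-likelihood test and DESeq2. With shSlug2, Sh3glb1 averaged 236 ± 31.2 CPM and Tecpr1 30.9 ± 12 CPM.

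The hairpins were also set against each other. Of the members, 0 were called higher and 0 lower in shSlug1 against shSlug2, where 0.0241% of all genes tested were higher and 0.489% lower. At an unadjusted p under 0.05 there were 3 members, Pik3c3, Atg2a and Atg10, against 1196 of all 12473 genes tested. Of the members, edgeR's quasi-likelihood test and DESeq2 each called 0, against 88 and 87 of all 12473 genes. Atg10 had 7.65, 9.48, 13.2, 17.2 and 28.3 CPM with shSlug1 and 2.41, 8.63, 5.11, 0 and 0 CPM with shSlug2. The groups overlapped between 1 library of each, and the log2 change was 2.35 (95% interval 0.89 to 3.81, limma adjusted p = 0.15). Sh3glb1 was lower with shSlug1, at 131 ± 21 against 236 ± 31.2 CPM with shSlug2 (-0.84, limma adjusted p = 5.4e-04).

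The shLuc line differed from the parental line in the same starvation medium, although neither carries a hairpin against Slug. Of the 40 members, 37 were tested, and 4 were called higher in shLuc (10% of the 40) and 4 lower (10%). Over all genes tested, 13.5% were higher and 10.1% lower. The higher ones were the initiation subunit Atg101 and the ATG8 genes Map1lc3b, Gabarap and Gabarapl2, and the lower ones were Rb1cc1, Pik3r4, Wipi2 and Tfe3. The median log2 change of the members was -0.23, against 0.10 over all genes tested. Libraries did not overlap for 4 members that were higher in shLuc and 7 that were lower. Of all 12473 genes tested, this held for 911 and 908. At an unadjusted p under 0.05 there were 12 members, against 4410 of all 12473 genes tested. Of the members, edgeR's quasi-likelihood test and DESeq2 each called 8, not the same 8, against 3002 and 2400 of all genes. Neither called Pik3r4; edgeR called Tfeb higher (1.48, adjusted p = 0.034) and DESeq2 called Sqstm1 lower (-0.35, adjusted p = 0.048). Mitochondrial genes took 17.3% to 21.7% of counts in shLuc and 23.8% to 28.0% in starved parental libraries, without overlap. Of the 9 ductal markers tested, 5 were higher in shLuc and 0 lower, with Krt18 at 5087 CPM in shLuc against 1804 CPM in starved parental cells. The part of both in the changes was not tested, and the hairpin, its delivery and the handling of the derivative cannot be told apart here. The parental starved libraries serve in this comparison and in that against complete medium, so the values of both are given side by side and their changes are not related to each other.

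Atg101 had 85.3, 115, 83.7, 66.5 and 89.6 CPM in shLuc libraries against 12.8, 36.5, 37.8, 25.5 and 18.8 CPM in starved parental ones. The ranges were far apart (means 88.1 ± 17.7 and 26.3 ± 10.9 CPM, 3.36-fold, log2 change 1.79, SE 0.28, limma adjusted p = 1.4e-06). Its partner Rb1cc1 went the other way, with 22.2, 30.2, 49.6, 41.1 and 67.8 CPM in shLuc against the 100 to 136 CPM of starved parental libraries. It was lower in every shLuc library (means 42.2 ± 17.7 and 121 ± 13.3 CPM, log2 change -1.59, SE 0.28, limma adjusted p = 9.4e-06). In the Slug hairpin lines Atg101 averaged 64.3 CPM with shSlug1 and 64.4 CPM with shSlug2, and Rb1cc1 40 and 45.3 CPM.

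In the ATG8 family all 3 called genes were higher in shLuc. Map1lc3b had 400, 671, 580, 557 and 526 CPM in shLuc against 261, 396, 365, 338 and 353 CPM in starved parental cells, and its lowest shLuc library was just above the highest parental one (log2 change 0.67, SE 0.13, limma adjusted p = 1.2e-04). Of the genes that overlap it, Gm20388 averaged 335 CPM in shLuc and 233 CPM in starved parental libraries, and Zcchc14 33.9 and 112 CPM. Gabarap, at the shLuc values given above, had 207, 224, 265, 255 and 230 CPM in starved parental cells (means 415 ± 49.4 and 236 ± 23.3 CPM, log2 change 0.81, SE 0.14, limma adjusted p = 1.1e-05). Gabarapl2 had 237, 247, 341, 234 and 231 CPM in shLuc against 69.3 to 169 CPM in starved parental libraries (1.00, SE 0.19, limma adjusted p = 5.7e-05). Both were higher in every shLuc library. Map1lc3a and Gabarapl1 averaged 60.5 and 71.6 CPM in shLuc against 42.7 and 61.6 CPM in starved parental cells, and neither was called.

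Wipi2 had 63, 55, 83.7, 60.1 and 70.6 CPM in shLuc, below every starved parental library (means 66.5 ± 11.2 and 129 ± 15.7 CPM, log2 change -0.95, SE 0.22, limma adjusted p = 7.2e-04). Tfe3 had 22.2, 13.7, 12.4, 9.49 and 19 CPM in shLuc, all below the 28.2 to 50.4 CPM of starved parental cells (means 15.4 ± 5.16 and 37.8 ± 8.71 CPM, log2 change -1.27, limma adjusted p = 0.025). The Tfe3 call was lost without starved replicate 3 (limma adjusted p = 0.063), without starved replicate 4 (0.05), without shLuc replicate 3 or 4 (0.051 and 0.066) and without the 3 libraries named above (0.052). Pik3r4, the regulatory kinase of the PI3-kinase complex, had 3.71, 5.5, 0, 3.16 and 0 CPM in shLuc against 6.38, 10.4, 18.9, 10.9 and 9.41 CPM in starved parental libraries, so a few counts decide it (log2 change -2.13, SE 0.77, limma adjusted p = 0.035). Its call was lost without starved replicate 2, 3 or 4 (limma adjusted p = 0.054, 0.082 and 0.055) and without shLuc replicate 3 or 5 (0.11 and 0.1). It was also lost without the 3 libraries named above (0.063), with no filter (0.097), with a pseudocount of 0.5 (0.053), in edgeR's quasi-likelihood test (0.057) and in DESeq2 (0.087).

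Sqstm1 averaged 278 ± 16.1 CPM in shLuc and 360 ± 64.1 CPM in starved parental cells and was not called (log2 change -0.35, 95% interval -0.65 to -0.05, limma adjusted p = 0.083). It was called lower without starved replicate 3 (-0.45, limma adjusted p = 0.032), with quantile scaling (-0.49, 0.011), with scaling that leaves out mitochondrial genes (-0.45, 0.018) and in DESeq2 (-0.35, 0.048). The other members below the threshold before adjustment were Atg13, Atg4a and Nbr1, with log2 changes of -0.74, -1.72 and -0.80 and limma adjusted p of 0.1, 0.064 and 0.075.

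**Figure D4:**
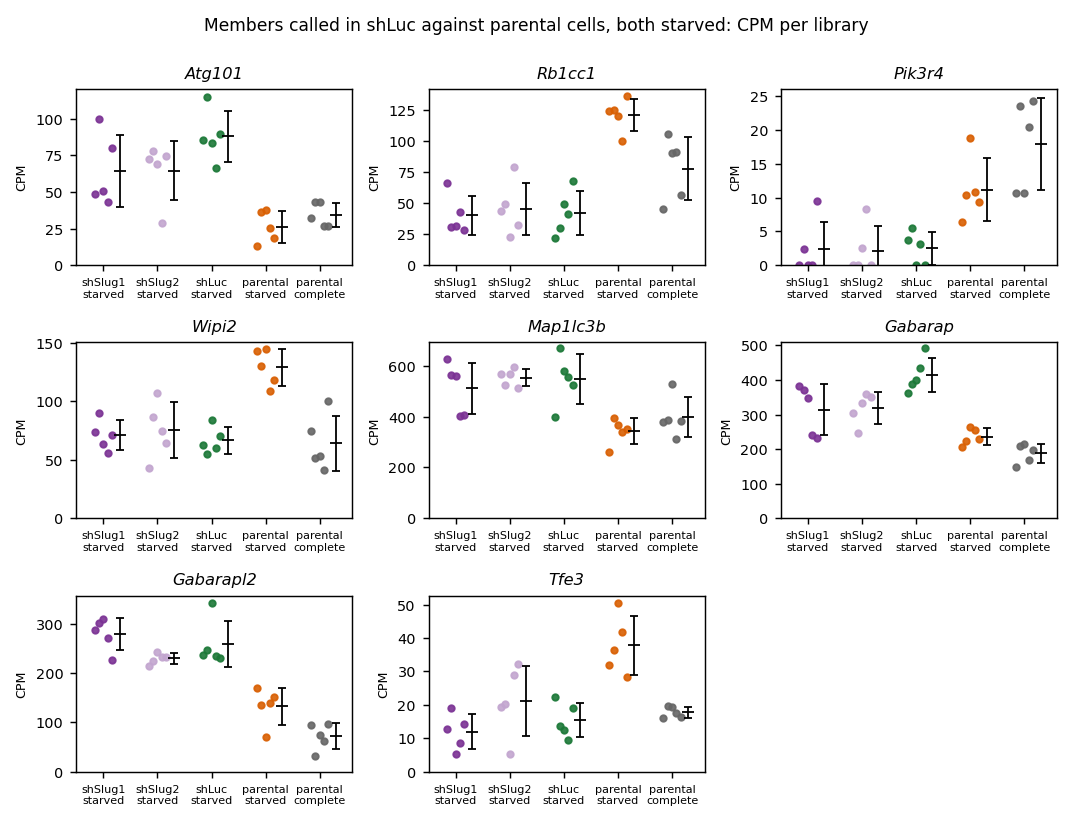
CPM of the 8 members called between shLuc and the parental line, both starved, with 1 point per library in all 5 groups and a bar for the mean ± SD (n = 5), cut off at 0 on the linear axis. Atg101, Map1lc3b, Gabarap and Gabarapl2 lie higher in shLuc than in starved parental cells, and Rb1cc1, Pik3r4, Wipi2 and Tfe3 lower.

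Of the 59 genes tested in the other autophagy lists, 6 were called higher (10.2%) and 5 lower (8.47%) in shLuc against starved parental cells, beside 13.5% and 10.1% of all genes tested. For fusion with the lysosome these were 1 higher and 3 lower of 15. Vamp8 averaged 304 ± 22.4 CPM in shLuc and 135 ± 19.8 CPM in starved parental cells (limma adjusted p = 5.2e-09). Tecpr1, Epg5 and Vps41, a subunit of the HOPS tether, averaged 40.3, 20.5 and 16.2 CPM in shLuc against 91, 53 and 36.7 CPM in starved parental cells (1.7e-03, 0.033 and 0.049). Of the other selective receptors 3 of 18 were higher, namely Sec62 and Atl3, both for endoplasmic reticulum, and Park2, the ubiquitin ligase of mitophagy, at 941, 178 and 30.6 CPM in shLuc against 590, 96 and 15 CPM in starved parental cells (6.6e-06, 1.6e-04 and 0.026). The adaptor Wdfy3 was lower, at 23.8 against 72 CPM (2.3e-04). Of 15 genes for nutrient control, Flcn and the lysosomal calcium channel Mcoln1 were higher, at 20.5 and 52.6 CPM in shLuc against 6.72 and 20.2 CPM in starved parental cells (7.2e-04 and 1.1e-03), and the transcription factor Foxo1 was lower, at 32.4 against 60.9 CPM (0.018). None of the 11 tested formation regulators was called. Leaving out single libraries ended the calls of Vps41 (starved replicates 1, 2, 3 and 5, shLuc replicates 1, 2, 3 and 5), Epg5 (starved replicates 2 to 4, shLuc replicates 1, 2 and 4) and Foxo1 (replicate 1 of either group), with limma adjusted p up to 0.15, 0.096 and 0.097. The change of Park2 was 0.68 without starved replicate 3 (limma adjusted p = 0.26) and 1.35 without shLuc replicate 1 (0.077), against 1.53 with all libraries. The Park2 call was also lost in DESeq2 (1.00, adjusted p = 0.12) and with only these groups fitted (limma adjusted p = 0.096). The call of Flcn was lost in edgeR's quasi-likelihood test (adjusted p = 0.06) and DESeq2 (0.095).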

How the data were processed

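The authors deposited 1 table of CPM values (counts scaled to the same total in each library) for 30926 genes in 25 libraries, of which 2766 genes had no count in any library. Per the labels' protocols, extraction used the PureLink RNA Mini Kit, and library preparation the QIAseq UPX 3' Transcriptome, a method that reads 3′ ends. Per the submitters' processing notes the build was mm10. The sources used here do not give the aligner, the annotation, the use of strand or the treatment of molecular identifiers and shared reads. Therefore 7 of the 40 members, whose last 1000 bases overlap another gene, carry an added uncertainty. Whole counts were recovered for 100% of the values (tolerance 0.001) and served for the edgeR and DESeq2 alternatives. Precision is limited by 158729 to 549893 counts per library, and floors of 3 counts cover counting error only.

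Tests covered the 12473 genes that reached 5 CPM in 5 or more libraries, of which 37 were members, since Atg9a, Wdr45 and Atg4c did not pass. limma-trend (limma 3.58.1, R 4.3.3) was fitted to log2(CPM + 1) in all 25 libraries at once with 1 coefficient per group, two-sided, with Benjamini-Hochberg adjustment over all genes tested and calls at an adjusted p under 0.05. Fold changes on this scale can understate or overstate the change of low genes. Where some libraries had no count they could exceed those of edgeR. For Flcn in starved against complete medium the log2 change was -1.66, and -0.40 in edgeR. Alternatives were edgeR 4.0.16 (quasi-likelihood), DESeq2 1.42.0, other pseudocounts, filters and scalings, a replicate block and each library left out. The script was tested on simulated data. Gene coordinates are from GENCODE M21 on the same build, counted from 1, and promoter windows from RefSeq.

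Members, lists and tests were chosen with earlier results of these data known. Values in every library were given for members called in any comparison, and for a few others chosen after their values were seen (Atg14, Atg2a and Atg10). Alternatives for genes of other lists were chosen after seeing the data. Of these lists, up to 4 called genes per list and comparison with the smallest p were named.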

Additional observations from a re-analysis of the deposited data

Results flagged for a closer look

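In 185 groups of 5 libraries (37 members in 5 groups), 12 had a highest or lowest library whose gap to its neighbour exceeded Dixon's 95% critical value, where chance gives about 1 in 20, or 9.25. Most rest on few counts. Among low values, Ulk1 had 31.5 CPM in starved replicate 3 against 14.1 to 18.2 CPM in the other starved libraries, and Tfeb had 14.1 CPM (3 counts) in starved replicate 5 against 3.64 to 6.38 CPM. Atg5 had 41.7 CPM in starved replicate 2 against 28.2 to 31.9 CPM. In shSlug1 replicate 5, which had a low total and the highest mitochondrial share of its group, Atg5 had 4.72 CPM (1 count) against 23.7 to 30.6 CPM, Pik3r4 9.45 CPM (2 counts) against 0 to 2.37 CPM, and Sqstm1 161 CPM against 246 to 273 CPM. Among the shSlug2 libraries, Atg101 had 29 CPM in replicate 4 against 68.9 to 77.7 CPM, Wipi1 had 19.4 CPM in replicate 5 against 43.2 to 48.5 CPM, and Atg4b had 26.5 CPM in replicate 1 against 19.4 to 20.7 CPM. Among the shLuc libraries, Atg16l1 had 33.4 CPM in replicate 1 against 13.6 to 19 CPM, Gabarapl2 had 341 CPM in replicate 3 against 231 to 247 CPM, and Sqstm1 had 250 CPM in replicate 4 against 282 to 289 CPM.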

How the results depend on the processing

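Of 17 called changes of members, 343 of 372 alternative values kept the call, 29 lost it and 0 reversed; the losses fell on Atg13, Atg3 and Nbr1 in starved against complete medium and on Pik3r4 and Tfe3 in shLuc against starved cells. Members higher under starvation numbered 7 to 11 over the alternatives and 6 to 10 with 1 library left out, with 0 lower throughout. All genes called there numbered 2374 to 3068 and 2484 to 2720. In shLuc against starved cells the lower members numbered 3 to 6, and 2 to 5 with 1 library left out. All genes called in that comparison numbered 2373 to 3216 and 2537 to 2912. Among the hairpin comparisons, a member was called lower in shSlug1 against shLuc only without shSlug1 replicate 3 (0 to 1 with 1 library left out) and in shSlug2 against shLuc only in DESeq2 (1); the cause was not tested. Genes called over the whole table also moved in the hairpin comparisons. In shSlug1 against shLuc, 182 became 121 with only those groups fitted, 293 in edgeR, and 99 to 197 with 1 library left out (99 without shLuc replicate 5). In shSlug2 against shLuc, 81 became 137 in edgeR and 140 in DESeq2. In shSlug1 against shSlug2, 64 became 38 with TMM scaling, 34 without the 3 libraries and 37 to 79 with 1 library left out (37 without shSlug2 replicate 4). Deviations of libraries with the same replicate number correlated by -0.0499 to 0.0264. Libraries that correlated best with their own number were 5 of 10 in starved against complete medium and 6 of 10 in shLuc against starved cells. In shSlug1 against shLuc, shSlug2 against shLuc and shSlug1 against shSlug2 they were 0, 0 and 1 of 10. The correlations were weak and the numbers were not taken as pairs, but the check does not exclude pairing. With the replicate block, 2774 genes in place of 2799 were called in starved against complete medium, with members again 9 and 0, and it changed no other count of members. The share of calls that were higher was 25.3% in shSlug1 against shLuc, 36.1% with quantile scaling and 35.8% without mitochondrial genes; 72.8%, 54.2% and 56.4% in shSlug2 against shLuc; and 4.69% in shSlug1 against shSlug2, 21.2% without mitochondrial genes. Quantile scaling moved the median of all genes by 0.11 (log2) in starved against complete medium. At these depths, members averaging under about 20 CPM rest on a few counts per library, and wide intervals limit what their missing calls show.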
